A study of Mus musculus with 24 samples.

Results

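The mitochondrial solute carriers of the Slc25 family were described in mouse kidney, as all protein-coding genes whose name was Slc25a followed by a number. The rule found 44 members among the 19399 genes of the table. No measured value entered the choice. Each carrier is built from a repeated pair of membrane helices and sits, in most cases, in the inner mitochondrial membrane, where it exchanges or imports a small molecule that the membrane does not let pass. Together the family moves nucleotides, phosphate, carboxylic and amino acids, acylcarnitines, cofactors, iron and glutathione between cytosol and matrix. In the kidney the cells of the proximal tubule are rich in mitochondria and depend on their oxidation of fuels for salt and solute reabsorption.

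Polyadenylated RNA was sequenced from kidneys of C57BL/6J mice, an inbred strain, at an age of 10 weeks, with 1 library per mouse. The groups were 7 water-deprived males, 6 watered males, 5 water-deprived females and 6 watered females. None carried a labelled transgene or drug. Deprived mice had no water for 9 to 11 h, watered mice drank freely, and kidneys were taken at midnight give or take 1 h, which is 6 h after the mice become active. Deprived female 5 is placed in its group by its title, whereas its treatment label describes free access to water. The clock time given for the removal of water does not fully match the stated hours.

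Libraries held 14411843 to 29398960 reads, and the members took 0.517% to 0.607% of them. Values are the authors' normalized read counts. Reads of an unnamed gene (ENSMUSG00000119584) were most frequent in 4 libraries, namely deprived males 6 and 7, deprived female 1 and watered female 6. It made up 1.07% to 2.86% of the total there and 0.268% to 0.850% elsewhere. The counts of members called are given with and without them, and the counts of members whose groups did not overlap, and of markers, with all libraries. All 14 listed markers of the proximal tubule were measured. Their summed level lay between 411339 and 463214 in deprived males, between 404364 and 478150 in watered males, between 246894 and 302394 in deprived females and between 296864 and 332303 in watered females. The median log2 difference over these 14 markers was 0.05 between deprived males and females and -0.03 between watered ones. Bulk tissue cannot tell fewer cells of a type from less RNA per cell.

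A few carriers made up most of the family's transcripts. On the scale of normalized counts per kilobase of exon, averaged over all 24 libraries, the ADP/ATP carrier Slc25a5 stood first with a level of 12068, which was 32.7% of the sum over members. Its reads may be shared with the close paralog Slc25a4, so the split between them is uncertain. The glutathione carrier Slc25a39 followed at a level of 3951 per kilobase, then the phosphate carrier Slc25a3 at 3523 and Slc25a4, the other ADP/ATP carrier in the table, at 2698. These carriers bring ADP and phosphate to ATP synthase and return ATP to the cytosol.

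The next 6 in order of level per kilobase were the dicarboxylate carrier Slc25a10 at 2237, the oxoglutarate/malate carrier Slc25a11 at 1612, the citrate carrier Slc25a1 at 1066, the peroxisomal cofactor carrier Slc25a17 at 907, the NAD carrier Slc25a51 at 801 and the aspartate/glutamate carrier Slc25a13 at 766. At the low end stood Slc25a18, a glutamate carrier, at 11.1, Slc25a43 at 8.82, Slc25a53 at 7.71 and the ornithine carrier Slc25a2 at 5.01 per kilobase. Slc25a2 did not reach a normalized count of 10 in 5 libraries and was not tested, so tests cover 43 members. Between neighbours in this order the ranges over libraries overlapped, with the exceptions of Slc25a5 against Slc25a39 and of Slc25a36 against Slc25a37. Slc25a31 and Slc25a41 were not analysed here.

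**Figure D1:**
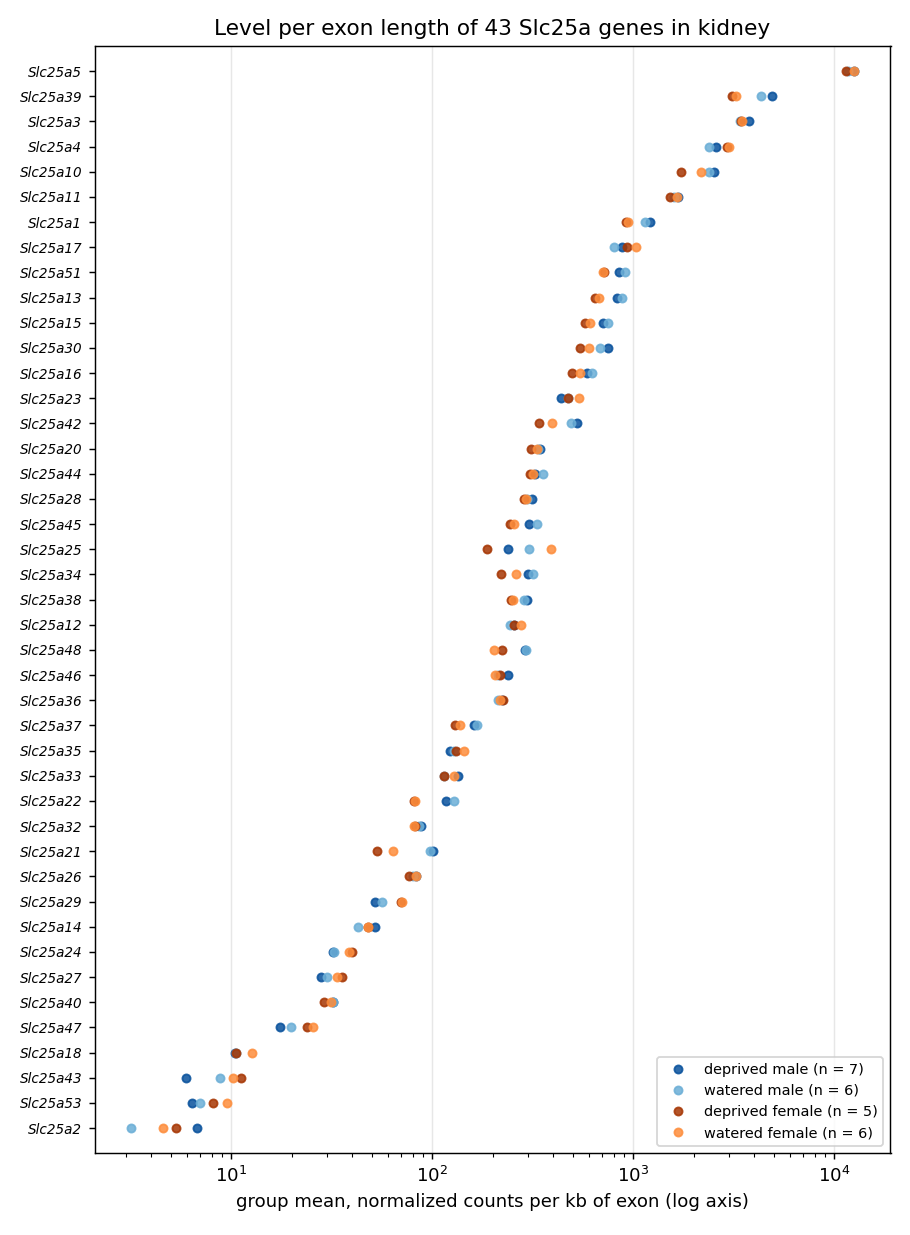
Mean level of 43 of the 44 members in normalized counts per kilobase of exon (log axis), with 1 point for each of the 4 groups. Slc25a5 stands at 12068 and Slc25a2 at 5.01 over all libraries, and the groups lie close together beside this range, the widest gap between group means among the tested members shown being that of Slc25a25.

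The first question was whether carriers changed when water was withheld. In females 1 of 43 members fell and 0 rose (2.33%, limma, adjusted p below 0.05), beside 0.79% of all tested genes called and 0.341% called lower. That member was Slc25a25, one of the ATP-Mg/phosphate carriers, which exchange ATP-Mg for phosphate under the control of cytosolic calcium and so set the size of the adenine nucleotide pool in the matrix. In males 0 of 43 members were called, beside 0.227% of all genes, with 4 members, and 2041 of all 17592 genes, at an unadjusted p below 0.05. Neither edgeR nor DESeq2 called a member in males.

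Slc25a25 (ENSMUSG00000026819) lies on the minus strand of chromosome 2, from 32414487 to 32451445 in GRCm38. Its normalized counts were 1506, 1208, 1322, 1509 and 1799 in deprived females 1 to 5, against a lowest value of 1989, a median of 3161 and a highest of 4106 in watered females. Every deprived female lay below every watered female. The means were 1469 ± 224 (SD, n = 5) in deprived females and 3068 ± 762 (SD, n = 6) in watered females. Exons of Naif1 on the other strand cover 4.82% of the exon length of Slc25a25. Whether counting kept the strands apart is not given in the sources used here.

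The fall in females was 1.04 ± 0.19 (SE) on the log2(value + 1) scale, a fold of 0.488, with a limma adjusted p of 0.0079. It was also called without the 4 libraries (a fall of 1.00, limma adjusted p = 0.0078), by edgeR and by DESeq2. With deprived female 5 counted as watered, as its treatment label has it, the difference of Slc25a25 was -1.01 with a limma adjusted p of 0.085, so that the call was lost at about the same size.

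In deprived males the same gene ran from 1322 through a median of 1588 to 3302, against 1946 through 2311 to 3030 in watered males. The highest of these 13 males, at 3302, was deprived male 7, one of the 4 libraries named above. The next deprived male stood at 1955, so that without it only the lowest watered male lay within the range of the deprived males. The means were 1875 ± 661 (SD, n = 7) in deprived males and 2389 ± 429 (SD, n = 6) in watered males.

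The difference in males was -0.39 ± 0.17 (SE) on the log2 scale and missed the threshold (limma, adjusted p = 0.39). Without deprived male 7 it was -0.54 (limma, adjusted p = 0.16). The change in males minus the change in females was 0.64 ± 0.26 (SE, limma, adjusted p = 0.58), so the sexes were not shown to differ in their response. Averaged over the sexes the change of Slc25a25 was -0.71 ± 0.13 (SE, limma, adjusted p = 0.0029). It was the only member called in this average, beside 1.64% of all genes called and 0.688% called lower.

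**Figure D2:**
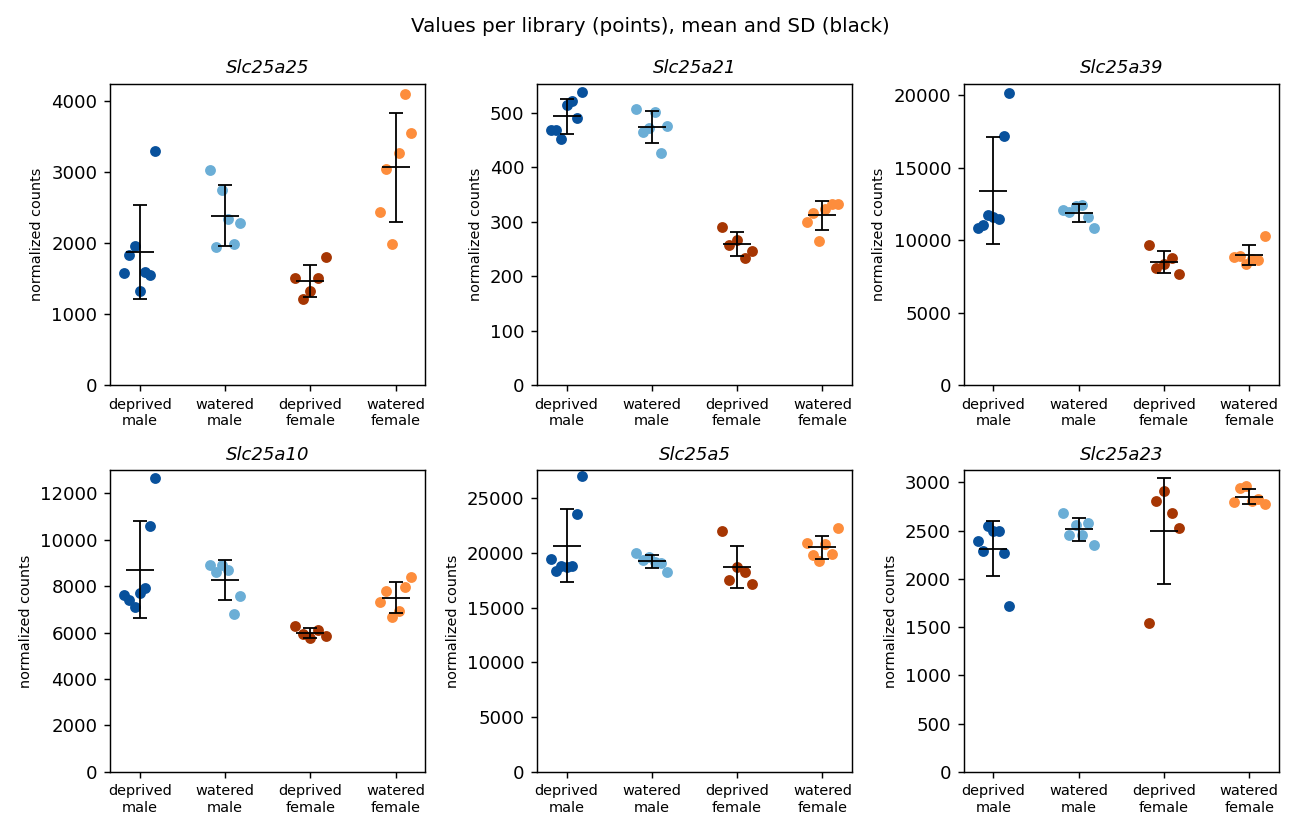
Normalized count in every library for Slc25a25, Slc25a21, Slc25a39, Slc25a10, Slc25a5 and Slc25a23 (linear axes), with the groups in the order deprived males, watered males, deprived females and watered females, and with the mean and SD as bars. For Slc25a25 the 5 deprived females lie at 1799 or lower and the watered females at 1989 or higher, while deprived male 7 stands alone at 3302.

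Within groups Slc25a25 was also one of the more variable members. Its coefficient of variation, averaged over the groups, was 23.3%, against a range over members with 4.02% at the low end. Only Slc25a2, Slc25a18 and Slc25a43 had higher ones, and these are among the 4 members with the lowest levels per kilobase.

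The genes whose log2 values followed those of Slc25a25 most closely, as deviations from the group means over the 24 libraries, were taken from the whole table. Pck1, the cytosolic enzyme that commits oxaloacetate to glucose formation, stood first with a Pearson correlation of 0.88 and a Spearman correlation of 0.81. Without deprived male 7 and watered female 3, the libraries farthest from the middle, the Pearson correlation was 0.81. Without the 4 libraries it was 0.84 and Pck1 was still first. The next were Lysmd1 at 0.81, Adra2b, which encodes an adrenergic receptor, at 0.81, Slc37a4, the glucose 6-phosphate transporter of the endoplasmic reticulum, at 0.79, and C330002G04Rik at 0.79. Adra2b took rank 12 and C330002G04Rik rank 35 without the 4 libraries, while Lysmd1 and Slc37a4 took ranks 5 and 4. Without the 2 farthest libraries the correlations were 0.65 for Lysmd1, 0.69 for Adra2b, 0.64 for Slc37a4 and 0.75 for C330002G04Rik. These are descriptions of libraries that share size factors and tissue composition, with no test.

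Pck1 had a mean normalized count of 52707 ± 8869.8 (SD, n = 5) in deprived females, against 75288 ± 10405 (SD, n = 6) in watered females. Its difference was -0.52 on the log2 scale and did not pass (limma, adjusted p = 0.22). In males the means of Pck1 were 47399 ± 17499 (SD, n = 7) with deprivation and 53769 ± 10734.0 (SD, n = 6) with water, a difference of -0.22 (limma, adjusted p = 0.56).

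The Slc25a25 gene has several start sites in RefSeq. The 250 bases before the start of its short transcript (GRCm38.p6, chr2:32424067-32424316, minus strand, RefSeq) are shown because they hold the palindrome TGACGTCA, the cAMP response element that CREB and related factors bind, which is in capitals and begins 150 bases before the start.
Slc25a25: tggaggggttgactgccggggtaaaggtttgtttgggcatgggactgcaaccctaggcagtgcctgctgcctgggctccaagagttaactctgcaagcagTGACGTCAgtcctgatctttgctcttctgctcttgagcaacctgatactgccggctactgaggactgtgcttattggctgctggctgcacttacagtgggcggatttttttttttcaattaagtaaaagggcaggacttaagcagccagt

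The motif was picked after this sequence had been read. TGACGTCA, which reads the same on both strands, was found in 1.55% of 32851 RefSeq windows of this length. The 34 members that have a window hold 44 windows, of which 2 had the motif. These belong to Slc25a25 and the pyrimidine nucleotide carrier Slc25a36. Pck1 holds the near form TTACGTCA, which was found on either strand in 0.447% of all windows and in 0 of the 44 windows of members. The 30 bases around each match (GRCm38.p6, RefSeq) are set below each other for Slc25a25 (chr2:32424198-32424227, minus strand), Slc25a36 (chr9:97111184-97111213, minus strand) and Pck1 (chr2:173152969-173152998, plus strand), with the motif in capitals.
Slc25a25: tctgcaagcagTGACGTCAgtcctgatctt
Slc25a36: tgcgaacctcgTGACGTCAcgcggcctaag
Pck1: aggcctgccccTTACGTCAgaggcgagcct

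A match is a description of letters and not a site of binding. Slc25a36, which holds the same palindrome as Slc25a25, had a log2 difference of 0.06 ± 0.06 (SE, limma, adjusted p = 0.86) between deprived and watered females and of 0.07 ± 0.05 (SE, limma, adjusted p = 0.56) between deprived and watered males.

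The other ATP-Mg/phosphate carriers were not called with deprivation. Slc25a23 had a mean normalized count of 2496 ± 553 (SD, n = 5) in deprived females and 2851 ± 79.9 (SD, n = 6) in watered females, a log2 difference of -0.23 (limma, adjusted p = 0.55). Its deprived mean was pulled down by deprived female 1, at 1542, the next lowest being 2528. In males Slc25a23 averaged 2314 ± 285 (SD, n = 7) with deprivation and 2513 ± 117 (SD, n = 6) with water, a difference of -0.13 (limma, adjusted p = 0.59). Slc25a24 averaged 137 ± 17.1 (SD, n = 5) in deprived females and 132 ± 14.4 (SD, n = 6) in watered females.

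Across the family in females, most differences were small and below 0. Of the 43 tested members 35 had a log2 difference below 0 between deprived and watered females (81.4%, against 55.1% of all tested genes). Their median was -0.08, against -0.02 over all genes, and they ran from -1.04 to 0.13, with 8 members, and 1711 of all 17592 genes, at an unadjusted p below 0.05. Without the 4 libraries 33 members lay below 0 (against 52.9% of all genes), with a median of -0.07. The members are not independent of each other and this count carries no test.

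Besides Slc25a25, 3 members had every deprived female below every watered female, which makes 4 of 43, beside 1.33% of all genes lower without overlap. In the other direction the members numbered 0, beside 1.15% of all genes, and both directions together took 2.48% of all genes. They were the dicarboxylate carrier Slc25a10, the coenzyme A carrier Slc25a42 and Slc25a34, a carrier of undefined substrate. Slc25a10 stood at 6276, 5922, 5764, 6123 and 5868 in deprived females 1 to 5, against a lowest value of 6676, a median of 7545 and a highest of 8403 in watered females. Its difference of -0.32 ± 0.11 (SE) did not pass (limma, adjusted p = 0.26).

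Slc25a42 was parted by the narrowest margin, with 2082.3 as its highest value in deprived females and 2082.4 as its lowest in watered females. For Slc25a42 the log2 difference was -0.20 (limma, adjusted p = 0.47), and for Slc25a34 it was -0.25 (limma, adjusted p = 0.38).

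Without the 4 libraries the count of members lower in deprived females was 6, beside 1.93% of all genes called lower. Apart from Slc25a25 they were Slc25a10, with a difference of -0.30 (limma, adjusted p = 0.0077), the ADP/ATP carrier Slc25a5 with -0.17 (limma, adjusted p = 0.0087), the oxoglutarate carrier Slc25a11 with -0.18 (limma, adjusted p = 0.012), the oxodicarboxylate carrier Slc25a21 with -0.29 (limma, adjusted p = 0.016) and Slc25a16 with -0.15 (limma, adjusted p = 0.029). The libraries set aside include deprived female 1. There Slc25a5 stood at 22017, against 17195 to 18667 in the other deprived females. The part of these libraries in the result was not tested.

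In males the family lay around 0. The median log2 difference between deprived and watered males was 0.01, against -0.00 over all genes, 21 of 43 members lay below 0, and the range was -0.47 to 0.29. No member separated the groups, beside 0.529% of all genes. Deprived males 6 and 7 carried high values of several abundant carriers. Slc25a5 stood at 23515 and 27026 there, against 18343 to 19457 in the other deprived males, and Slc25a39 at 17163 and 20172, against 10829.8 to 11705. Without the 4 libraries 28 of 43 members lay below 0 in males, with a median of -0.03 and 0 called.

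The male minus the female response was called for 0 of 43 members and for 0% of all genes. By limma 7 members, and 1248 of all genes, had an unadjusted p below 0.05, and neither edgeR nor DESeq2 called a member.

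**Figure D3:**
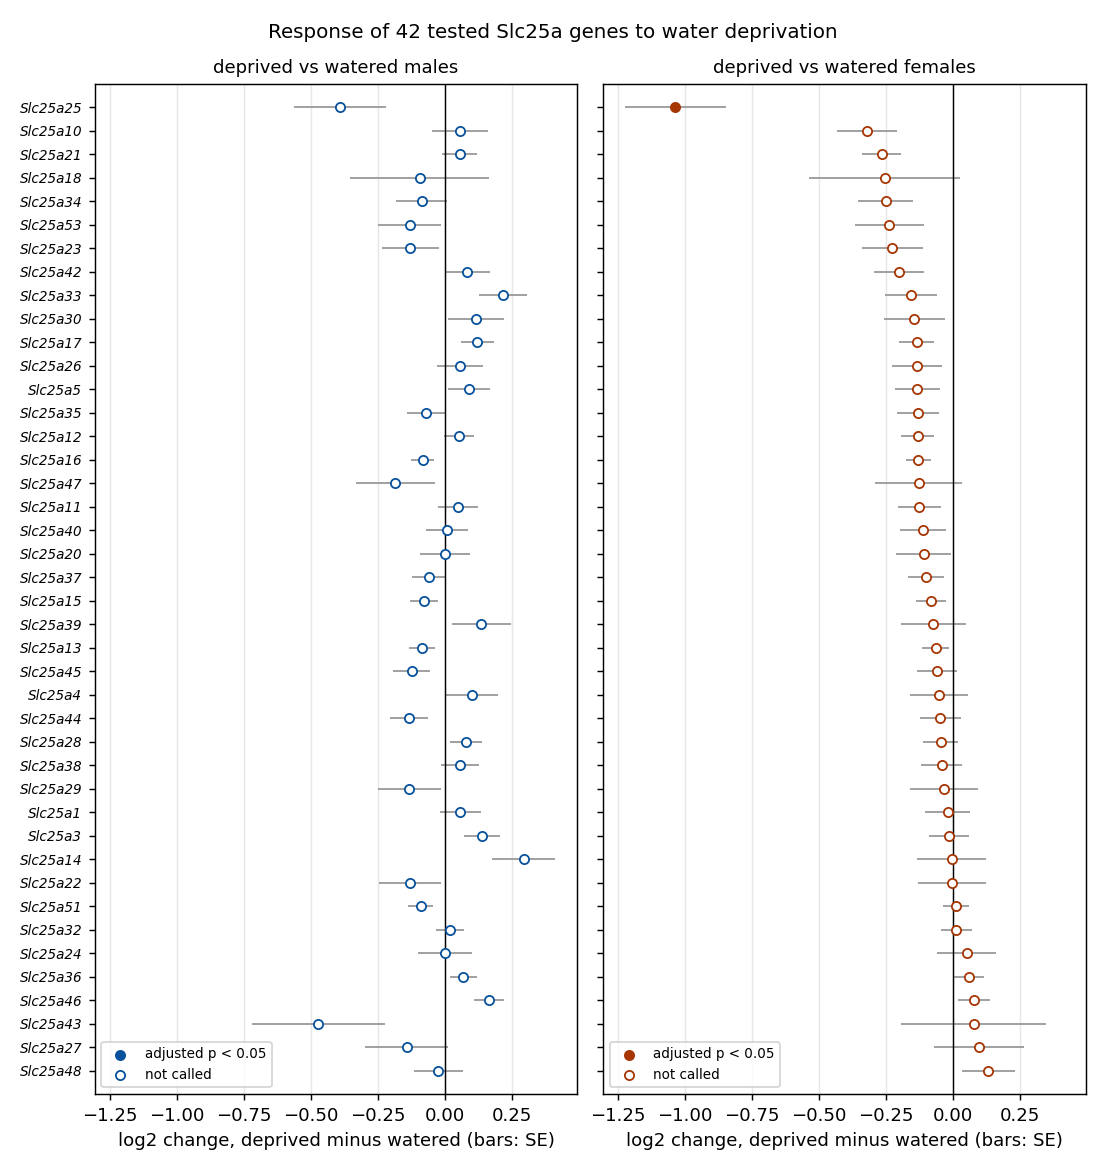
Log2 difference between deprived and watered mice, with its SE, for 42 of the 43 tested members, males in the left panel and females in the right one, filled points being called (limma, adjusted p below 0.05). Slc25a25 in females, at -1.04, is the only filled point.

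Markers of some cell types moved with deprivation, beside 0.79% of all tested genes called in females and 0.227% in males. Of 14 proximal tubule markers 3 were called lower in deprived females (Slc22a6, Slc22a8 and Slc5a10, transporters of organic anions and sugars), and 0 were called in males. Of 7 tested principal cell markers 2 were called higher and 1 lower in deprived females, and 2 were called higher in deprived males (the water channels Aqp2 and Aqp3). Of 7 stroma markers 2 were called higher in deprived females and 0 were called in males, with a summed level of 6127 to 8196 in deprived females against 4673 to 6460 in watered females. In neither sex was a marker called of the thick ascending limb, distal convoluted tubule, intercalated cells, podocytes or endothelium. The same held for immune cells, fat, skeletal muscle, adrenal and blood. The endothelial sums were 14337 to 16119 in deprived females, against 12024 to 13856 in watered females. The summed level of the principal cell markers was 23833 to 27588 in deprived females, against 17482 to 23567 in watered females, and 20748 to 28456 in deprived males, against 15296 to 17105 in watered males. The median log2 difference over the 7 tested principal cell markers was -0.14 in females and -0.03 in males. The higher sums therefore do not describe the typical marker of this cell type. Their part in the differences of the carriers was not tested.

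Lists of related genes, chosen with earlier results of these data known, gave the setting. Of 22 other mitochondrial transport genes 0 were called with deprivation in either sex. The same held for 26 tested enzymes that share substrates with the carriers and for 13 genes of mitochondrial biogenesis. Of all tested genes 0.79% were called in females and 0.227% in males, so 0 calls in lists of this size is near that share. Of 16 tested clock genes 1 was called higher (Cry1) and 4 lower (Per3, Nr1d1, Nr1d2 and Dbp) in deprived females, and 1 higher (Nfil3) and 2 lower (Per3 and Cry2) in deprived males.

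The second question was how the carriers differ between males and females. In watered mice 13 of 43 members were higher and 6 lower in males (44.2%, limma, adjusted p below 0.05), beside 30.5% of all tested genes. Under deprivation 16 were higher and 5 lower in males (48.8%), beside 33.1% of all genes. Calls of all genes were split evenly, at 15.9% higher and 14.5% lower in watered males and at 17.5% higher and 15.6% lower in deprived males. The differences were modest, the median size among called members being 0.38 in deprived mice and 0.34 in watered mice on the log2 scale.

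The comparisons in deprived and in watered mice share no library, but they come from the same fit and share its estimate of the spread for each gene. A total of 15 of the 43 tested members were called in the same direction in both, beside 22% of all genes. They were 71.4% of the 21 members called in deprived mice and 78.9% of the 19 called in watered mice, and 0 were called in opposite directions. Of the 15, 13 were higher in males: Slc25a1, Slc25a13, Slc25a15, Slc25a16, Slc25a21, Slc25a22, Slc25a34, Slc25a37, Slc25a39, Slc25a42, Slc25a45, Slc25a48 and Slc25a51. The other 2, Slc25a29 and Slc25a53, were lower in males. A further 6 members were called in deprived mice and 4 in watered mice, but the sex difference itself was called different between the water states for 0 of 43 members, since this is the same quantity as the male minus the female response.

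In deprived mice 11 members were higher and 1 lower in males with no overlap between the sexes, beside 9.06% and 6.39% of all genes, 15.5% in all. In watered mice 12 members were higher and 3 lower in males with no overlap, beside 13.3% and 9.07% of all genes, 22.4% in all. Without the 4 libraries 23 members were called in deprived mice, beside 7184 of all tested genes, and 25 in watered mice, beside 7395. Every watered call was among them, and of the deprived calls that of Slc25a53 was lost, at an adjusted p of 0.084 (limma).

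**Figure D4:**
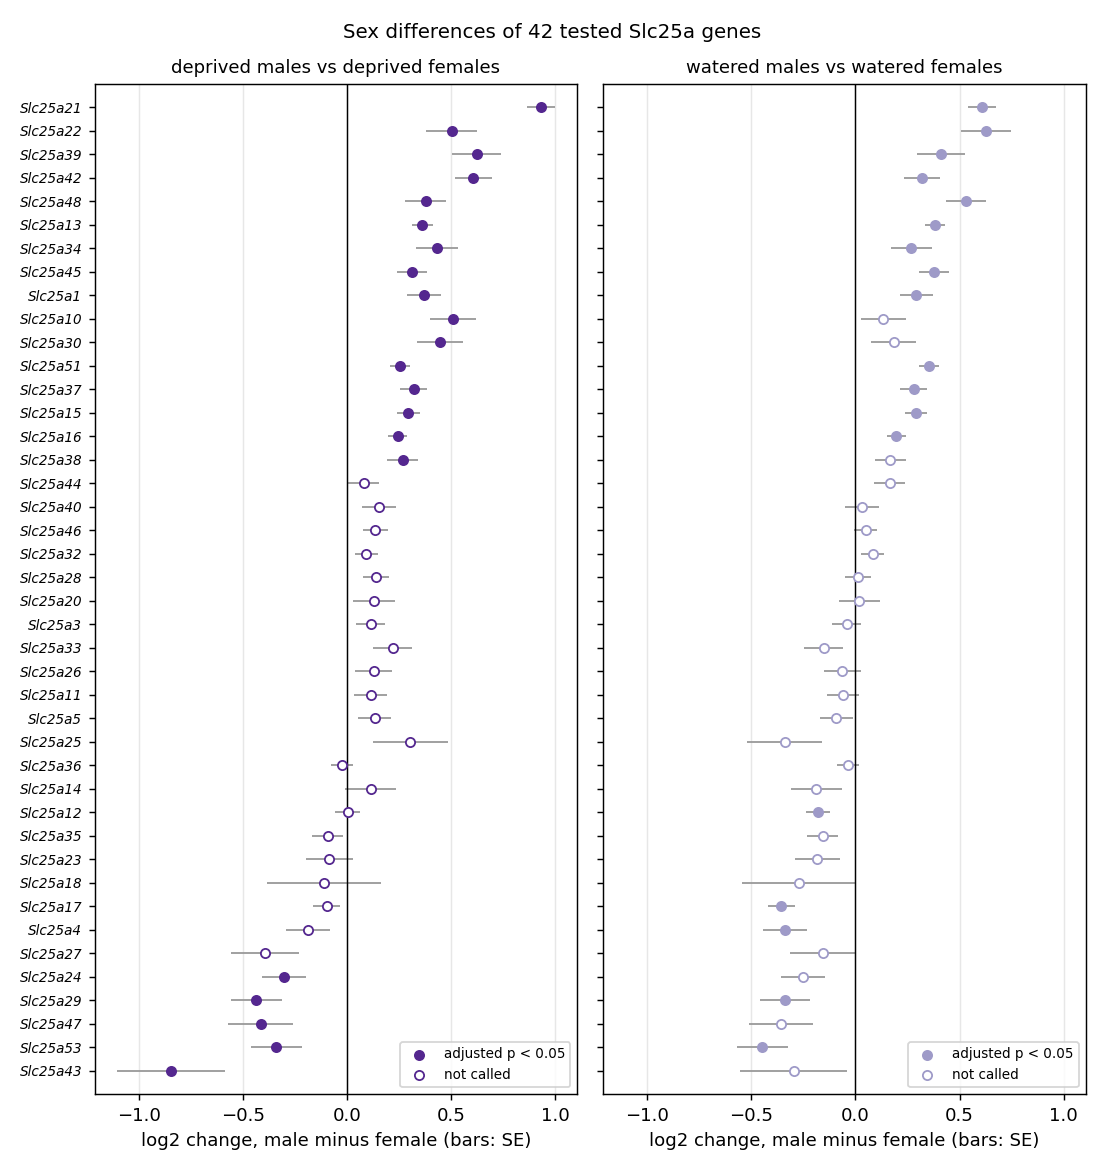
Log2 difference between males and females, with its SE, for 42 of the 43 tested members, in deprived mice (left panel) and in watered mice (right panel), filled points being called (limma, adjusted p below 0.05). Slc25a21 stands highest in deprived mice at 0.93, and 21 points are filled in deprived and 18 in watered mice.

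Among the carriers of carboxylic acids, Slc25a21 had the largest difference of the deprived comparison. It moves 2-oxoadipate, an intermediate of lysine and tryptophan breakdown, into the matrix, and lies on the minus strand of chromosome 12, from 56712634 to 57197472 in GRCm38. In deprived males its normalized count ran from 452.5 through a median of 489.8 to 538, against 290.7, 257, 266, 233 and 246 in deprived females 1 to 5. In watered males it ran from 426 through 474 to 507.5, against 265 through 319.5 to 333 in watered females. The sexes did not overlap in either water state.

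The log2 difference of Slc25a21 between males and females was 0.93 ± 0.07 (SE, limma, adjusted p = 3.3e-11) in deprived mice, a fold of 1.91, and 0.61 ± 0.07 (SE, limma, adjusted p = 7.0e-08) in watered mice. With deprivation it differed by -0.27 in females (limma, adjusted p = 0.081), and the male minus the female response was 0.32 ± 0.10 (SE, limma, adjusted p = 0.39). The female difference was called without deprived female 1 (-0.31, limma, adjusted p = 0.038) and without watered female 3 (-0.31, limma, adjusted p = 0.035). Exons of Pax9 on the other strand cover 3.88% of its exon length, and whether counting kept the strands apart is not given in the sources used here. Other members had such overlaps too, among them Slc25a10 with 6.60% (Gm11788) and Slc25a11 with 8.92% (Rnf167).

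The citrate carrier Slc25a1, which exports citrate for the synthesis of fatty acids, was higher in males by 0.37 ± 0.08 (SE, limma, adjusted p = 7.4e-04) in deprived mice and by 0.29 ± 0.08 (SE, limma, adjusted p = 0.0058) in watered mice. Slc25a10, which exchanges malate and succinate for phosphate, was called higher in males in deprived mice. Its values ran from 7082 through a median of 7686 to 12642 in deprived males and did not overlap the deprived females given above. The means were 8712 ± 2087 (SD, n = 7) in deprived males and 5991 ± 206 (SD, n = 5) in deprived females, a log2 difference of 0.51 ± 0.11 (SE, limma, adjusted p = 6.8e-04). In watered mice they were 8247 ± 867 (SD, n = 6) in males and 7506 ± 658 (SD, n = 6) in females, a difference of 0.13 (limma, adjusted p = 0.39). Without the 4 libraries Slc25a10 was called in both, at 0.35 in deprived and 0.17 in watered mice. Slc25a11 was called in neither.

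Of the amino acid carriers, Slc25a13, the aspartate/glutamate carrier also called citrin, showed the tightest difference. It ran from 2855 through a median of 3171 to 3382 in deprived males, against 2398, 2690.0, 2575, 2209 and 2409 in deprived females 1 to 5. In watered mice it ran from 3292 through 3339 to 3382 in males, against 2435 through 2572 to 2657 in females. No male fell within the range of the females. The log2 difference was 0.36 ± 0.05 (SE, limma, adjusted p = 2.0e-06) in deprived mice and 0.38 ± 0.05 (SE, limma, adjusted p = 6.6e-07) in watered mice.

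Its relative Slc25a12 had a difference of 0.00 (limma, adjusted p = 0.97) in deprived mice and was lower by 0.18 in watered males, at -0.18 ± 0.06 (SE, limma, adjusted p = 0.020). The glutamate carrier Slc25a22 averaged 701 ± 151 (SD, n = 7) in deprived males against 489 ± 51.4 (SD, n = 5) in deprived females, a difference of 0.50 ± 0.12 (SE, limma, adjusted p = 0.0021). In watered mice it averaged 764 ± 123 (SD, n = 6) in males and 489 ± 39.1 (SD, n = 6) in females, and its difference of 0.63 ± 0.12 (SE, limma, adjusted p = 1.8e-04) was the largest of that comparison. In watered mice watered male 2, at 520.0, lay inside the range of the females, which reached 553.

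The ornithine carrier Slc25a15, which links urea cycle intermediates in cytosol and matrix, was higher in males by 0.29 in deprived and 0.29 in watered mice (limma, adjusted p = 1.1e-04 in each). The basic amino acid carrier Slc25a29 was lower in males, at -0.44 ± 0.12 (SE, limma, adjusted p = 0.0070) in deprived and -0.34 ± 0.12 (SE, limma, adjusted p = 0.035) in watered mice. The glycine carrier Slc25a38, needed for haem synthesis, was higher in deprived males by 0.27 (limma, adjusted p = 0.0069), with 0.17 in watered mice (limma, adjusted p = 0.086). Slc25a44, a carrier of branched-chain amino acids, was called in neither, with 0.16 (limma, adjusted p = 0.091) in watered mice. Every watered male lay above every watered female for Slc25a44. Without the 4 libraries it was called in watered mice, at 0.16 (limma, adjusted p = 0.0053).

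Of the 4 iron and glutathione carriers 2 were called, both higher in males. Slc25a39 ran from 10829.8 through a median of 11560.1 to 20172 in deprived males, against 9629, 8102, 8332, 8754 and 7683 in deprived females 1 to 5. In watered mice it ran from 10838 through 12010.2 to 12454 in males, against 8323 through 8751 to 10287 in females. The sexes did not overlap in either water state, and the highest values came from deprived males 6 and 7. The log2 difference was 0.62 ± 0.12 (SE, limma, adjusted p = 1.5e-04) in deprived and 0.41 (limma, adjusted p = 0.0072) in watered mice, and without the 4 libraries it was 0.46 in deprived and 0.45 in watered mice.

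Slc25a37, the iron importer mitoferrin-1, was higher in males by 0.32 (limma, adjusted p = 4.2e-04) in deprived and 0.28 (limma, adjusted p = 0.0014) in watered mice. Slc25a28, mitoferrin-2, had differences of 0.14 (limma, adjusted p = 0.096) and 0.01 (limma, adjusted p = 0.90) in the same order, and Slc25a40, the close relative of Slc25a39, had 0.15 (limma, adjusted p = 0.16) and 0.03 (limma, adjusted p = 0.81).

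Of the 9 cofactor carriers 3 were called higher in males in both water states. Slc25a42, which imports coenzyme A, ran from 2480 through a median of 3199 to 3993 in deprived males, against 1937, 2053, 2039, 2082 and 2076 in deprived females 1 to 5. It ran from 2668 through 2956 to 3197 in watered males, against 2082 through 2402 to 2594 in watered females. No male overlapped the females of its water state, and the difference was 0.61 ± 0.09 (SE, limma, adjusted p = 6.1e-06) in deprived and 0.32 ± 0.09 (SE, limma, adjusted p = 0.0064) in watered mice.

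Slc25a51, the NAD importer, was higher in males by 0.25 ± 0.05 (SE, limma, adjusted p = 1.6e-04) in deprived and 0.35 ± 0.05 (SE, limma, adjusted p = 1.3e-06) in watered mice, and Slc25a16 by 0.24 and 0.20 (limma, adjusted p = 1.5e-04 and 0.0013). Slc25a17, the peroxisomal carrier of coenzyme A and other cofactors, was called lower in males in watered mice and not called in deprived mice. Slc25a17 had -0.36 ± 0.06 (SE, limma, adjusted p = 7.6e-05) there and -0.10 (limma, adjusted p = 0.26) in deprived mice. Slc25a17 was called lower in deprived males too without the 4 libraries, at -0.17 (limma, adjusted p = 0.0024), as it was with weights per library (-0.16) and with the replicate block (-0.16).

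Of the nucleotide and phosphate carriers 1 was called, Slc25a4, with -0.34 ± 0.10 (SE, limma, adjusted p = 0.014) between watered males and females and -0.19 (limma, adjusted p = 0.18) between deprived males and females. Slc25a4 was called in deprived mice too without the 4 libraries, at -0.24 (limma, adjusted p = 0.0010). Slc25a5 had 0.13 (limma, adjusted p = 0.22) in deprived and -0.09 (limma, adjusted p = 0.43) in watered mice, and Slc25a3 had 0.11 (limma, adjusted p = 0.24) and -0.04 (limma, adjusted p = 0.71).

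Slc25a25 was not called between the sexes, at 0.30 ± 0.18 (SE, limma, adjusted p = 0.21) in deprived and -0.34 ± 0.18 (SE, limma, adjusted p = 0.16) in watered mice. Of its relatives, Slc25a24 was lower in deprived males at -0.30 ± 0.11 (SE, limma, adjusted p = 0.029). Slc25a23 was called in neither, at -0.08 (limma, adjusted p = 0.60) in deprived and -0.18 (limma, adjusted p = 0.22) in watered mice. In watered mice every male lay below every female for Slc25a23. Without the 4 libraries Slc25a23 was called in both, at -0.16 (limma, adjusted p = 0.0052) in deprived and -0.19 (limma, adjusted p = 3.5e-04) in watered mice. Slc25a24 was then called in watered mice too, at -0.26 (limma, adjusted p = 0.046). The acylcarnitine carrier Slc25a20, which brings long-chain fatty acids to oxidation, was called in neither.

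Of the 3 relatives of the uncoupling proteins, Slc25a30, first described as a kidney mitochondrial carrier, was higher in deprived males by 0.45 ± 0.11 (SE, limma, adjusted p = 0.0025) and had 0.18 (limma, adjusted p = 0.22) in watered mice. Slc25a14 and Slc25a27 were called in neither. In the remaining group Slc25a48, Slc25a45 and Slc25a34 were higher in males in both. Slc25a48 had 0.38 ± 0.10 (SE, limma, adjusted p = 0.0035) in deprived and 0.53 ± 0.10 (SE, limma, adjusted p = 8.8e-05) in watered mice.

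Slc25a53 had -0.34 (limma, adjusted p = 0.035) in deprived and -0.45 (limma, adjusted p = 0.0059) in watered mice. Slc25a43 was lower in deprived males at -0.84 ± 0.26 (SE, limma, adjusted p = 0.014), with means of only 10.5 ± 2.77 (SD, n = 7) in deprived males and 19.8 ± 5.83 (SD, n = 5) in deprived females. Slc25a47 was lower in deprived males at -0.41 ± 0.16 (SE, limma, adjusted p = 0.041).

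Some members are neighbours in the genome. Slc25a29 and Slc25a47 lie 162 bases apart on chromosome 12, and both were lower in deprived males. In watered mice Slc25a47 had -0.36 (limma, adjusted p = 0.079). Slc25a5 and Slc25a43 lie 18448 bases apart on chromosome X, and Slc25a43 alone of this pair was called.

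Some related genes differed between the sexes too. Of all tested genes 33.1% were called in deprived and 30.5% in watered mice. Of the 13 genes of mitochondrial biogenesis 4 were higher and 0 lower in deprived males. In watered males 1 of them was higher and 1 lower, so this list was near or below those shares. Of the 22 other mitochondrial transport genes 9 were higher and 3 lower in deprived males, and 8 were higher and 4 lower in watered males. The serine carrier Sfxn1 was higher by 0.45 ± 0.06 (SE, limma, adjusted p = 1.5e-06) in deprived and 0.35 ± 0.06 (SE, limma, adjusted p = 5.4e-05) in watered males. Of its relatives, Sfxn5 was also higher, with 0.35 (limma, adjusted p = 4.9e-05) and 0.21 (limma, adjusted p = 0.0087) in the same order. Sfxn2, Sfxn3 and Sfxn4 were called lower in males in both water states, Sfxn3 with -0.34 (limma, adjusted p = 3.1e-04) and -0.46 (limma, adjusted p = 6.7e-06).

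Of the 26 enzymes 12 were higher and 7 lower in deprived males, and 10 were higher and 8 lower in watered males. The shares of all genes called were those given above. Oat, which breaks down the ornithine that Slc25a15 carries, had -1.37 ± 0.05 (SE) in each (limma, adjusted p = 5.8e-17 in deprived and 4.2e-17 in watered mice). Ass1, which uses the aspartate that Slc25a13 exports, had 0.87 ± 0.07 (SE, limma, adjusted p = 1.0e-10) in deprived and 0.95 ± 0.07 (SE, limma, adjusted p = 1.2e-11) in watered mice.

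Markers of several cell types moved with sex as well, beside 33.1% of all tested genes called in deprived and 30.5% in watered mice. Of 5 tested immune, 6 tested fat and 4 blood markers 0 were called in either water state. Of 14 proximal tubule markers 6 were called higher and 2 lower in males in each water state, with the summed levels given above. Their median log2 difference was 0.05 in deprived and -0.03 in watered mice, so the higher sums in males do not describe the typical marker. Of 5 podocyte markers 5 were lower in males in each, with sums of 5016 to 7426 in deprived males, 6631 to 7381 in watered males, 7728 to 9970.1 in deprived females and 8125 to 9391 in watered females. Of 8 endothelial markers 7 were lower in deprived males, with sums of 11596 to 13191 against 14337 to 16119 in deprived females, and 3 were lower in watered males, with sums of 10978 to 13034 against 12024 to 13856 in watered females. Of 7 stroma markers 6 were lower in deprived males and 0 were called in watered mice. Markers of the distal nephron were mostly lower in males where called. In deprived males these were 3 of 5 for the thick ascending limb (with 1 higher), 3 of 4 for the distal convoluted tubule, 4 of 7 for principal cells and 4 of 6 for intercalated cells. In watered males they were 2 of 5, 1 of 4, 4 of 7 and 3 of 6 in the same order. The part of these in the sex differences of the carriers was not tested.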

How the data were processed

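The authors deposited 1 table of normalized gene counts, a linear signal for 19399 genes in 24 kidney libraries. Per the submitters' processing notes, DESeq2, featureCounts (Subread), Trim Galore and the mm10 build were used. Which aligner was used, and whether counting kept the strands apart, is not given in these sources. Groups came from the titles. Whole reads could be recovered for the alternatives, since 100.0% of values in each library were whole within 0.01 read. Gene names were checked against GENCODE M21 (GRCm38), and 23 names turned into dates were replaced.

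Differences come from limma 3.58.1 (R 4.3.3) with trended, robust prior variances, fitted to log2(value + 1) of all 24 libraries with a mean for each group and a pseudocount of 1. The test covered 17592 genes, those reaching a value of 10 in 5 or more libraries. Benjamini-Hochberg adjustment ran over these genes, with calls below 0.05. Fold changes understate those of low genes. Levels between genes use merged exon length. Alternatives were edgeR 4.0.16 and DESeq2 1.42.0 on recovered reads, TMM scaling, other pseudocounts, no filter, weights per library, the compared groups alone, a replicate block, each library left out, and deprived female 5 counted as watered. Leaving out the 4 libraries was added after seeing the data. These 4 also stood lowest, at -0.586 to -0.242, on the first principal component of the deviations from group means. The next lowest library was at -0.033, and this component held 25.8% of the spread. Leaving them out thus takes spread out of their groups, so calls kept or gained there are not independent support. The fit was tested on simulated counts.

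Members, lists and tests were chosen with earlier results of these data known. A member is not reported by name here, though it enters the counts. The text otherwise names every called member, the 10 with the highest level per length, the ADP/ATP and ATP-Mg carriers, called genes of other lists and the 5 genes most like Slc25a25. Other genes and members were named after their values were seen. Each library is labelled as 1 mouse, and no batch is labelled.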

Additional observations from a re-analysis of the deposited data

Results flagged for a closer look

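Among 30 named members in 4 groups, which makes 120 sets of values, 10 had a highest or lowest library set apart from the rest by Dixon's 95% limit. Chance gives about 1 in 20. Of these, 6 fell in the 4 libraries in which an unnamed gene took more of the reads.

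Deprived male 7 was the highest of its group for Slc25a25 at 3302, the next being 1955, and for Slc25a11 at 4714, the next being 3700.0. It was the lowest for Slc25a23 at 1716, the next being 2263. Deprived female 1 was likewise the lowest of its group for Slc25a23 at 1542, the next being 2528, and the highest for Slc25a3 at 22189, the next being 18885. Watered female 6 was the highest of its group for Slc25a39 at 10287, the next being 8930.1.

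The other 4 lay outside those libraries. Slc25a22 was highest in deprived male 3 at 1012, the next being 738, and lowest in watered male 2 at 520.0, the next being 757. Slc25a51 was lowest in deprived female 4 at 3601, the next being 3995. Slc25a29 was lowest in deprived male 5 at 85.4, the next being 128.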

How the results depend on the processing

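Among members in deprived against watered females, 1 was called by limma. The count was 6 without the 4 libraries, 2 with the compared groups fitted alone, 0 with deprived female 5 counted as watered, 3 with DESeq2 and 7 with weights per library, and it ran from 1 to 2 over fits without 1 library, the 2 adding Slc25a21 (without deprived female 1 or watered female 3). Slc25a25 in females was called in 24 of 24 such fits, from -1.15 to -0.94. In males 0 members, and for the male minus the female response 0 members, were called in every fit run. Between deprived males and females 18 to 23 members were called over the fits without 1 library, and between watered males and females 17 to 21.

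Over all genes 139 were called in deprived against watered females (741 without the 4 libraries, 2 with deprived female 5 counted as watered, 364 with DESeq2, 1003 with weights per library), and 40 in males (142, 31, 157 and 133 in the same order, and 11 with the groups fitted alone). The average over the sexes held 289 calls (1230, 120, 562 and 1165), of which 1 was a member (7, 1, 2 and 5), and the male minus the female response held 0 (9, 0, 30 and 9). The cause was not tested.

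Same-numbered libraries correlated from -0.17 to 0.17 in their deviations from group means, so the numbers were not taken to pair them. The numbers are those of the titles, and some deprived females bear a different number in their library code. For those neither the correlations nor the replicate block can speak on a pairing by code. With the replicate block 1 member was called in females, 0 in males, 0 for the male minus the female response, 21 between deprived males and females and 20 between watered ones, and 2 members in the average over the sexes. Over all genes the block gave 64 calls in males.

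Outside the fits that leave out 1 library, results of the tested members kept their side of the threshold in 2690 cases, most of them without a call. Calls were lost in 8 cases and gained in 53, with 0 reversed. The 8 were Slc25a25 in females and, between deprived males and females, Slc25a43 (deprived female 5 counted as watered, adjusted p = 0.052, limma), Slc25a47 (groups fitted alone, replicate block) and Slc25a53 (those settings, deprived female 5 counted as watered, without the 4 libraries). Leaving out deprived female 5 also lost Slc25a43. The deprived calls of Slc25a24 were lost without deprived females 2, 4 or 5 or male 4, of Slc25a47 without deprived females 2, 3 or 4 or males 1, 2, 4 or 7, and of Slc25a53 without deprived females 1, 2, 4 or 5 or males 2, 4 or 7. The watered calls of Slc25a29 were lost without watered females 1, 4, 5 or 6 or males 3, 4 or 6, and of Slc25a34 without watered females 1, 2, 4 or 6 or males 2, 3 or 4. The highest limma adjusted p was 0.17, for Slc25a47. TMM scaling moved the median of all genes by at most -0.006. Depth limits the members with the lowest counts, among them Slc25a43, Slc25a18 and Slc25a2.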
